A study of Homo sapiens with 6 samples.

Results

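The semaphorins, plexins and neuropilins were described in cultured MDA-MB-231 cells, a triple-negative human breast cancer line, with and without exposure to fine airborne particulate matter (PM2.5). The members were the protein-coding rows of the deposited gene count table whose symbols belong to semaphorin classes 3 to 7, plexins A to D or neuropilins. There were 31 such genes among 58735 rows: 20 semaphorins, 9 plexins and 2 neuropilins. RNA from 3 libraries labelled PM2.5 and 3 labelled Control was sequenced, with extraction 48 h after exposure began. The cells of all 6 libraries are the same line, and the labels give no particle source, dose or vehicle. The design text describes biological replicates, but not how separate the cultures were, so p-values measure the spread between these libraries.

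Semaphorins are guidance ligands that share a sema domain. Those of class 3 are secreted in vertebrates, those of classes 4 to 6 span the membrane and SEMA7A is held at the membrane by a lipid anchor. Plexins are their main receptors and carry a GTPase-activating region on the cytoplasmic side, through which they act on small GTPases, integrin adhesion and the cytoskeleton. Most class 3 semaphorins reach class A plexins through neuropilins, which have short cytoplasmic tails and also bind vascular endothelial growth factors. First found as cues for growing axons, these genes are also known for roles in tumour cell migration and vessel growth.

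Total counts ran from 31846136 to 34691009 per library. The line's markers matched its label: VIM, CD44, CAV1, AXL and MSN summed to 8306 to 8934 CPM (library-size-scaled counts with TMM factors) in the PM2.5 libraries and to 6315 to 7609 CPM in the Control libraries, and ESR1, PGR, CDH1 and FOXA1 summed to at most 0.422 CPM in a PM2.5 library and 0.497 CPM in a Control library. The endothelial genes CDH5, TEK and CLDN5, the neuronal gene SNAP25 and the leukocyte gene PTPRC each averaged under 0.05 CPM in both groups. The endothelial list of 6 genes summed to 54.0 to 58.5 CPM in the PM2.5 libraries and 39.0 to 51.2 CPM in the Control libraries, nearly all of it PECAM1, which was called higher. The leukocyte list of 6 genes summed to 3.14 to 4.96 CPM in the PM2.5 libraries and 1.55 to 2.45 CPM in the Control libraries, with CD14 and ITGAM called higher and PTPRC and CD3E among those at 0. The neural list, mostly MBP, summed to 48.3 to 56.6 CPM in the PM2.5 libraries and 55.6 to 67.5 CPM in the Control libraries. The fibroblast list summed to 22.0 to 26.1 CPM in the PM2.5 libraries and 18.2 to 26.5 CPM in the Control libraries, mostly COL1A1, with DCN and LUM at 0. The part of these genes in the results was not tested. HMOX1 and CYP1A1, which particulate matter is known to induce, were 15.8-fold and 2.30-fold lower in the libraries labelled PM2.5, so every direction is for the libraries as labelled. Control replicate 3 stood apart on the second principal component, which held 14.98% of the variance, at a score of -36.9 against 16.5 and 14.8 for Control replicates 1 and 2.

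Of the 31 genes 27 passed the filter on low counts, and 11 of these were higher in the libraries labelled PM2.5 and 0 lower (quasi-likelihood test of edgeR, Benjamini-Hochberg adjusted p under 0.05). The called genes were 7 semaphorins (SEMA3A, SEMA3B, SEMA3C, SEMA3F, SEMA4B, SEMA4D and SEMA6B), 3 plexins (PLXNA2, PLXNB2 and PLXND1) and NRP2. That is 40.7% of the tested members. At an unadjusted p under 0.05 edgeR put 12 members higher and 0 lower, DESeq2 13 and 0, and voom 14 and 0. The same threshold over all 14975 tested genes gave 3104 higher and 3179 lower by edgeR, 3159 and 3044 by DESeq2, and 3129 and 3166 by voom. At the adjusted threshold edgeR called 31.9% of all tested genes, 16.1% higher and 15.8% lower. The median log2 change of the tested members was 0.27, beside -0.01 over all tested genes. A positive value was found for 23 of 27 members and for 7360 of all 14975 tested genes. The PM2.5 and Control libraries did not overlap for the 11 called members, and overlapped for the other 16; over all tested genes 44.3% did not overlap, 21.4% with PM2.5 higher. Only SEMA3A and SEMA3C, 2 of 27 tested members, were called with a change of at least 2-fold, beside 1081 of all 14975 tested genes. The calls fell among 19 genes with a mean of at least 5 CPM, and the 8 tested genes under that level had 0 calls, with log2 changes between -0.22 and 0.56.

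**Figure D1:**
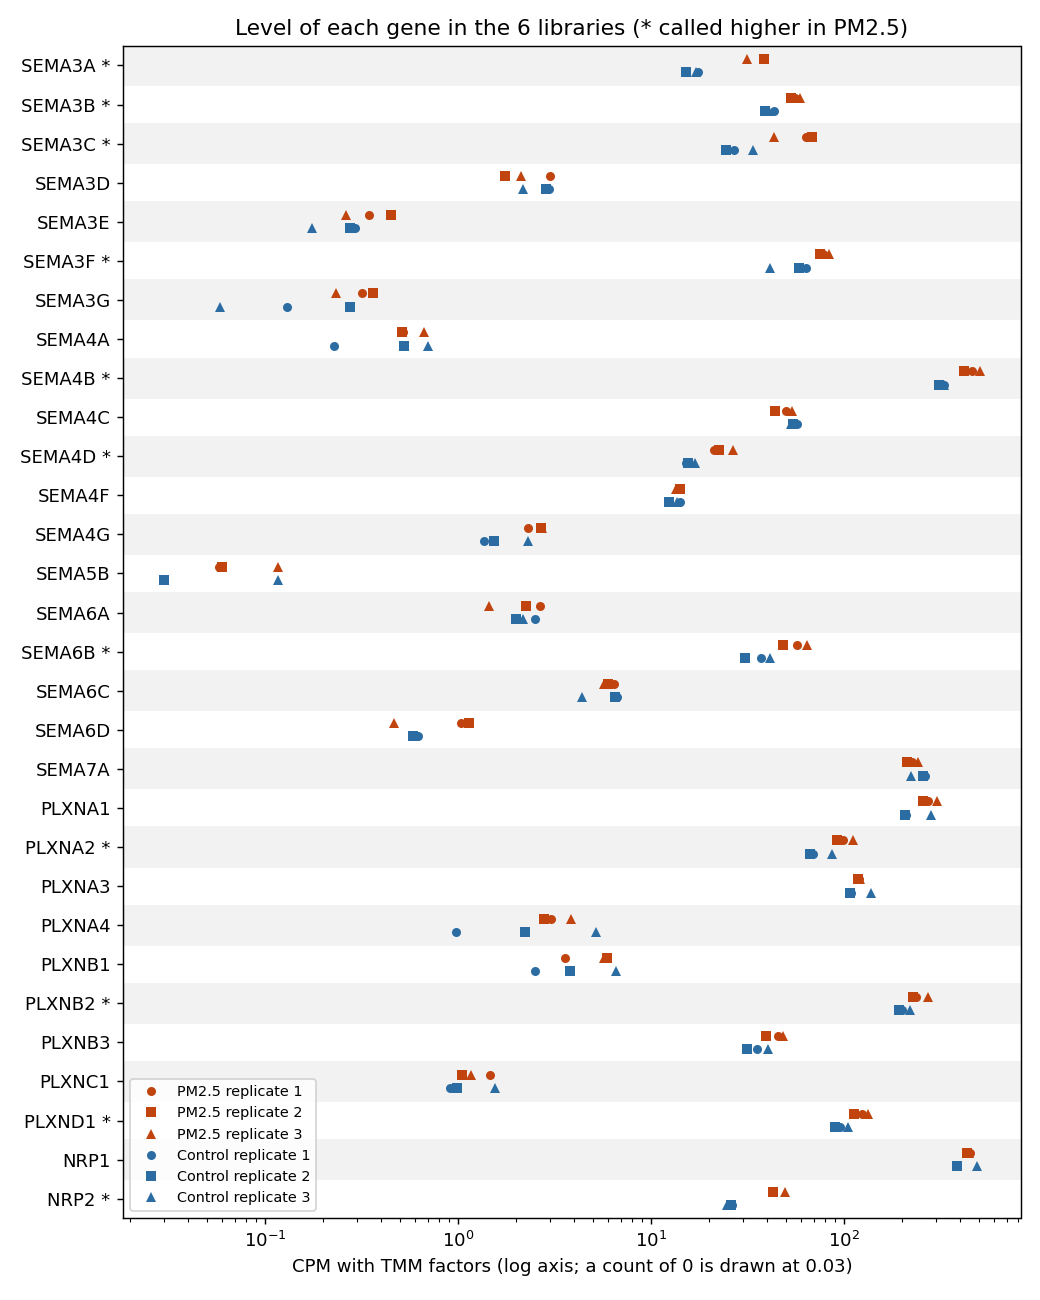
Level of each member with at least 1 count, in CPM on a log axis, with 3 PM2.5 libraries (red, upper row of each gene) and 3 Control libraries (blue, lower row), 1 symbol shape per replicate. SEMA3A and NRP2 show wide gaps between the groups and SEMA3C a narrower one, whereas the symbols of SEMA7A, NRP1 and PLXNA3 overlap.

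The largest changes among the tested members were those of SEMA3A and SEMA3C, of the secreted class 3. Of the 7 genes of that class 5 were tested, and 4 of these rose (80%, beside 16.1% of all tested genes). The summed level per length of the 7 was 39.7 ± 1.33 CPM per kb in the PM2.5 libraries and 25.2 ± 2.08 CPM per kb in the Control libraries (SD, n = 3 each), a ratio of 1.58.

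SEMA3A, the founding repellent of axon growth cones, which signals through NRP1 and class A plexins, is encoded on the minus strand of chromosome 7, bases 83955777 to 84492724 (GRCh38, ENSG00000075213). Its level was 38.2, 38.7 and 31.3 CPM in PM2.5 replicates 1 to 3, against 17.6, 15.3 and 17.2 CPM in Control replicates 1 to 3. The lowest PM2.5 library stood well above the highest Control library. The rise of SEMA3A was 2.16-fold (log2 change 1.11 ± 0.12, SE, edgeR adjusted p = 4.01e-06).

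SEMA3C, which binds both neuropilins and is known for promoting migration of several carcinoma cell types, is on the same chromosome and strand, bases 80742538 to 80922359 (ENSG00000075223). It had 63.8, 68.4 and 43.7 CPM in the PM2.5 libraries, against 26.8, 24.6 and 33.7 CPM in the Control libraries. PM2.5 replicate 3 was the lowest of its group and Control replicate 3 the highest of its own, and the groups stayed apart. The rise was 2.06-fold (log2 change 1.05 ± 0.15, SE, edgeR adjusted p = 8.53e-05). The other class 3 genes of chromosome 7 were low. SEMA3D, at 84995553 to 85186855, had 2.29 ± 0.64 CPM in the PM2.5 libraries and 2.67 ± 0.44 CPM in the Control libraries, with a log2 change of -0.22 and a 95% interval from -0.77 to 0.34. SEMA3E, a ligand that binds PLXND1 without a neuropilin, was not tested, with 60 counts over the 6 libraries.

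SEMA3B and SEMA3F lie near each other on the plus strand of chromosome 3, in a region known for loss in lung cancer, where both genes were described as candidate tumour suppressors. SEMA3F, a ligand with a preference for NRP2, spans 50155045 to 50189075 (ENSG00000001617) and SEMA3B 50267558 to 50277546 (ENSG00000012171). SEMA3F had 78.4, 75.3 and 83.4 CPM in the PM2.5 libraries, against 63.9, 58.8 and 41.6 CPM in the Control libraries. It rose 1.44-fold (log2 change 0.53 ± 0.13, SE, edgeR adjusted p = 0.00544). Control replicate 3 was the lowest library, and without it the log2 change was 0.36 ± 0.09 (edgeR adjusted p = 0.00742). SEMA3B had 55.8, 53.3 and 58.9 CPM in the PM2.5 libraries, against 43.5, 39.0 and 41.0 CPM in the Control libraries. Here the 3 libraries of each group lay close together, and the rise was 1.36-fold (log2 change 0.44 ± 0.10, SE, edgeR adjusted p = 0.00244). SEMA3G, also on chromosome 3, had 46 counts in all and was not tested.

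Because 4 of the 5 tested class 3 ligands rose, the sequence just upstream of their RefSeq starts was set beside that of NRP2. NRP2 is the receptor with the largest rise among the members. SEMA3D, which did not pass the test, is not shown. RefSeq windows (GRCh38.p14, 250 bases before to 50 bases after a RefSeq start) were found for 27 of the 31 members. For each the window nearest the deposited gene start was used. Its start lay 30 bases from the deposited one for SEMA3C, 13 for SEMA3F, 94 for SEMA3B and 511 for NRP2. The NRP2 line thus lies inside the deposited gene span. Distances were larger for PLXNA1 (5479), PLXNB2 (5958), SEMA4B (24316) and PLXNA4 (72218), which enter the motif counts below. SEMA3A, SEMA6A, SEMA6B and NRP1 had no entry, so the lines cover only SEMA3B, SEMA3C and SEMA3F of the ligands that rose. The lines give the bases before the start that lie under no exon of GENCODE release 29, in the direction of transcription, with matches to 5 short motifs in capitals.
SEMA3C, chr7:80922390-80922639, minus strand: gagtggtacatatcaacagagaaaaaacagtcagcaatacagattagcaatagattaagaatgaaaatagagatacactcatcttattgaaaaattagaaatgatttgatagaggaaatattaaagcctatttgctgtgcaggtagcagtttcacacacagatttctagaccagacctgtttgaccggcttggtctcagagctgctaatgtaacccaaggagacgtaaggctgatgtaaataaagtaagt
SEMA3F, chr3:50154808-50155044, plus strand: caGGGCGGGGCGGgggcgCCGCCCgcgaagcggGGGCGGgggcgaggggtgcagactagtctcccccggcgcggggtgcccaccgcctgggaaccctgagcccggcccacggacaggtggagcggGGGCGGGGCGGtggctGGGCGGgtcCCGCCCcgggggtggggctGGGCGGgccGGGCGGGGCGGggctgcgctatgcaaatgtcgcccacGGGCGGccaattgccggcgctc
SEMA3B, chr3:50267402-50267557, plus strand: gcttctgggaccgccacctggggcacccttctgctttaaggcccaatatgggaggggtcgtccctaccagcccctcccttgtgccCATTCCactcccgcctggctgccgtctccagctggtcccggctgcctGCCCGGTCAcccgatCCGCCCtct
NRP2, chr2:205682251-205682499, plus strand: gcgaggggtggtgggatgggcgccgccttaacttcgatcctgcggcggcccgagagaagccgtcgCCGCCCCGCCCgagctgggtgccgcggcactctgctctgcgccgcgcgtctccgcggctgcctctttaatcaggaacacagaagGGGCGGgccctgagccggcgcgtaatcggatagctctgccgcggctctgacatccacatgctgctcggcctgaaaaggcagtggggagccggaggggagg
The capitals in SEMA3F and NRP2 are GC boxes (GGGCGG on either strand, with overlapping matches counted). In the printed part of SEMA3B they are a TEAD site (GGAATG), an antioxidant response element (TGACNNNGC) and a GC box. All 250 bases before its start, part of them under exons and not printed, hold 4 GC boxes and 1 match to GCGTG, described below. The SEMA3C sequence holds 0 matches. The window of SEMA3D, not printed, holds 3 matches to GCGTG and 0 GC boxes. Whether any match goes with a rise was not tested. The 300-base windows have a GC content of 36.0% for SEMA3C, 81.3% for SEMA3F, 68.7% for SEMA3B and 70.0% for NRP2.

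A GC box was found in the windows of 20 of 27 members, in 8 of 9 that rose and in 10 of 14 that were tested and not called. Over all 34943 windows the share was 44.9%. The core of the xenobiotic response element (GCGTG), to which the aryl hydrocarbon receptor binds, was found in 6 of 27 members. It was in 2 of 9 that rose and in 4 of 14 that were tested and not called, beside 36.5% of all windows. The antioxidant response element was found in 2 of 27 members (13.3% of all windows), the TEAD site in 3 (14.0%) and the AP-1 site (TGANTCA) in 0 (7.72%). A match is only a run of letters, and starts other than those windows were not searched.

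Among the membrane-bound semaphorins, 3 of 11 tested genes rose (27.3%, beside 16.1% of all tested genes) and 8 did not pass the test. SEMA4B, the most abundant semaphorin by CPM, lies on chromosome 15 at 90160604 to 90229679 (plus strand, ENSG00000185033). It had 463, 417 and 505 CPM in the PM2.5 libraries, against 331, 309 and 331 CPM in the Control libraries. The Control libraries lay close together and the PM2.5 libraries spread more widely above them. SEMA4B rose 1.43-fold (log2 change 0.51 ± 0.10, SE, edgeR adjusted p = 0.000884).

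SEMA4D (CD100), a PLXNB1 ligand known in immune cells and in tumour vessel growth, lies on chromosome 9 and had 21.3, 22.6 and 26.5 CPM in the PM2.5 libraries, against 15.1, 15.6 and 17.001 CPM in the Control libraries. It rose 1.47-fold (log2 change 0.56 ± 0.13, SE, edgeR adjusted p = 0.00288). SEMA6B, a transmembrane class 6 semaphorin on chromosome 19 that is known to bind PLXNA4, had 57.1, 48.1 and 64.1 CPM in the PM2.5 libraries, against 37.3, 30.8 and 41.3 CPM in the Control libraries. Within each group replicate 2 was the lowest and replicate 3 the highest, and the groups stayed apart. SEMA6B rose 1.55-fold (log2 change 0.63 ± 0.13, SE, edgeR adjusted p = 0.00127).

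SEMA7A, which binds PLXNC1 and beta-1 integrins, was the other abundant ligand and did not pass the test. It had 226, 212 and 242 CPM in the PM2.5 libraries, against 262, 258 and 223 CPM in the Control libraries. The groups overlapped through Control replicate 3. The log2 change was -0.13 with a 95% interval from -0.33 to 0.08 (edgeR adjusted p = 0.353), which leaves out a rise of the size seen for SEMA4B. Per length, SEMA7A and SEMA4B stood at 59.7 ± 3.99 and 65.9 ± 6.26 CPM per kb in the PM2.5 libraries and at 65.1 ± 5.70 and 46.2 ± 1.78 CPM per kb in the Control libraries. SEMA7A held 31.1% ± 0.28 of all semaphorin level per length in the PM2.5 libraries and 41.0% ± 2.30 in the Control libraries (SD, n = 3 each), and SEMA4B held 34.3% ± 1.15 in the PM2.5 libraries and 29.2% ± 1.67 in the Control libraries. These shares add up over the family, so a rise of other genes lowers the share of a gene that stays level.

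SEMA4C, a PLXNB2 ligand on chromosome 2, had 50.2, 44.0 and 53.6 CPM in the PM2.5 libraries, against 57.4, 54.4 and 53.0 CPM in the Control libraries. Its groups overlapped, and the log2 change of -0.16 had an interval from -0.37 to 0.06. SEMA4F had 13.8, 14.2 and 13.5 CPM in the PM2.5 libraries, against 14.1, 12.4 and 13.7 CPM in the Control libraries, a log2 change of 0.05 with an interval from -0.22 to 0.32. SEMA6C had 6.45, 5.97 and 5.74 CPM in the PM2.5 libraries, against 6.67, 6.54 and 4.42 CPM in the Control libraries, with an interval from -0.35 to 0.44. None of these 3 passed the test.

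SEMA4A, SEMA4G, SEMA6A and SEMA6D averaged between 0.526 and 2.18 CPM over the 6 libraries and did not pass the test. The highest log2 change among them, 0.56 for SEMA6D and for SEMA4G, had wide intervals, from -0.36 to 1.49 and from -0.01 to 1.13. Without Control replicate 3 SEMA4G passed the test (log2 change 0.82 ± 0.26, SE, edgeR adjusted p = 0.0301). Of the exonic bases of SEMA4G 27.4% lie under exons of other genes, mainly MRPL43, which had 55.8 ± 2.86 CPM in the PM2.5 libraries and 64.7 ± 7.11 CPM in the Control libraries. The strand setting of the counting is not given in the sources used here, so reads of such a pair cannot be told apart. Class 5 semaphorins were near or at the floor, with 12 counts of SEMA5B over the 6 libraries and 0 of SEMA5A. A count of 0 allows up to 0.0864 to 0.0980 CPM in a library, 3 counts of its scaled total, for counting error only.

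**Figure D2:**
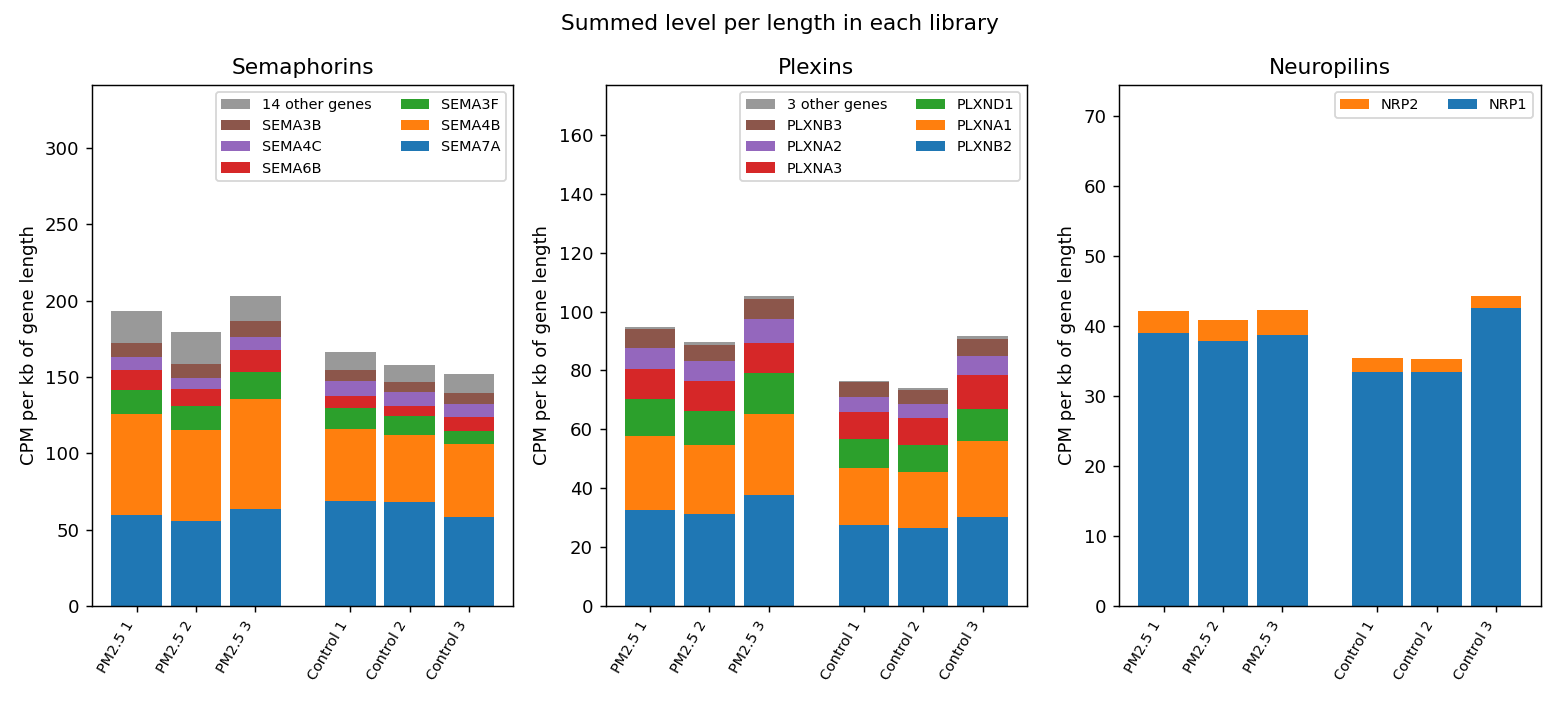
Stacked bars of CPM per kb of gene length in each library for semaphorins, plexins and neuropilins, with PM2.5 replicates on the left and Control replicates on the right of each panel. SEMA7A and SEMA4B make up most of the semaphorin level, NRP1 most of the neuropilin level, and the plexin bar of Control replicate 3 (91.8) is close to those of PM2.5 replicates 1 and 2 (94.9 and 89.6).

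All 9 plexins had positive log2 changes, from 0.02 to 0.44, as did 7360 of all 14975 tested genes. Of the 9 plexins 3 rose (33.3%, beside 16.1% of all tested genes). Without Control replicate 1 the values of PLXNA3 (-0.039), PLXNA4 (-0.20), PLXNB1 (-0.041) and PLXNC1 (-0.048), of which edgeR called none with or without that library, were negative. The summed level per length of the 9 plexins was 96.6 ± 8.01 CPM per kb in the PM2.5 libraries and 80.7 ± 9.72 CPM per kb in the Control libraries (SD, n = 3 each). Control replicate 3 was the highest Control library for all 9 plexins. Over all 27 tested members, these 9 included, it was so for 15. The part of that library in these results was tested only by leaving it out. Without it 16 members rose and 0 fell, 6 of them plexins, where 16.9% of all tested genes rose and 17.4% fell.

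PLXNA2, a class A receptor for class 3 semaphorins with a neuropilin and for class 6 semaphorins directly, had 98.7, 92.0 and 111 CPM in the PM2.5 libraries, against 69.2, 66.4 and 86.7 CPM in the Control libraries. It rose 1.36-fold (log2 change 0.44 ± 0.11, SE, edgeR adjusted p = 0.00733). Without Control replicate 3 the log2 change was 0.57 ± 0.10, and without Control replicate 2 the call was lost (0.37 ± 0.13, edgeR adjusted p = 0.0508). PLXND1, a receptor known from developing vessels, had 124, 113 and 134 CPM in the PM2.5 libraries, against 96.0, 90.3 and 105 CPM in the Control libraries. The groups were separate by a narrow margin. PLXND1 rose 1.27-fold (log2 change 0.35 ± 0.10, SE, edgeR adjusted p = 0.0135). That call was lost without PM2.5 replicate 1 (adjusted p = 0.0604), PM2.5 replicate 3 (0.0529), Control replicate 1 (0.0531) or Control replicate 2 (0.0839).

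PLXNB2, the plexin with the highest level per length and a receptor for class 4 semaphorins, had 237, 227 and 273 CPM in the PM2.5 libraries, against 199, 193 and 219 CPM in the Control libraries. It rose 1.21-fold (log2 change 0.27 ± 0.10, SE, edgeR adjusted p = 0.0472), just inside the threshold. The call was lost without PM2.5 replicate 1 (adjusted p = 0.113), PM2.5 replicate 3 (0.184), Control replicate 1 (0.154) or Control replicate 2 (0.190), without the filter on low counts (0.0670) and with the replicate number as a block (0.0590).

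PLXNB3, its X-linked relative, lay just outside, with 45.6, 39.3 and 48.3 CPM in the PM2.5 libraries, against 35.5, 31.4 and 40.4 CPM in the Control libraries. Its log2 change was 0.31 ± 0.12 (SE, edgeR adjusted p = 0.0523). It passed without Control replicate 3 (adjusted p = 0.0151) or PM2.5 replicate 2 (0.0287), with the stricter filter (0.0440), with DESeq2's size factors (0.0446), by DESeq2 (0.0410) and with the replicate block (0.0413). Exons of SRPK3 cover 20.4% of its exonic bases, but SRPK3 itself had at most 0.288 CPM in any library.

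PLXNA1, a co-receptor of neuropilins, had 274, 256 and 303 CPM in the PM2.5 libraries, against 211, 207 and 283 CPM in the Control libraries. Control replicate 3 lay among the PM2.5 libraries. With it the log2 change was 0.25 ± 0.12 (SE, edgeR adjusted p = 0.125), and without it 0.41 ± 0.08 (adjusted p = 0.00268). PLXNA3, also a co-receptor for class 3 ligands, had 119, 119 and 122 CPM in the PM2.5 libraries, against 109, 108 and 138 CPM in the Control libraries. Here Control replicate 3 was the highest of all 6 libraries. PLXNA3 was not called with it (log2 change 0.02, 95% interval from -0.20 to 0.24) or without it (0.14 ± 0.07, edgeR adjusted p = 0.161).

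PLXNB1, PLXNA4 and PLXNC1, the receptors of SEMA4D, of class 6 semaphorins and of SEMA7A, averaged 4.69, 3.01 and 1.19 CPM over the 6 libraries and did not pass the test. PLXNA4 ran from 2.81 to 3.88 CPM in the PM2.5 libraries and from 0.98 to 5.18 CPM in the Control libraries, with Control replicate 3 at the top. Without that library its log2 change was 1.01 ± 0.32 (SE, edgeR adjusted p = 0.0301). Per length PLXNB2 stood highest, at 33.9 ± 3.32 CPM per kb in the PM2.5 libraries and 28.1 ± 1.90 in the Control libraries. PLXNA1 followed with 25.4 ± 2.16 CPM per kb in the PM2.5 libraries and 21.4 ± 3.91 in the Control libraries. PLXND1 had 12.7 ± 1.09 CPM per kb in the PM2.5 libraries and 9.96 ± 0.75 in the Control libraries, and PLXNA3 10.2 ± 0.13 in the PM2.5 libraries and 10.1 ± 1.47 in the Control libraries. PLXND1 and PLXNA3 did not differ beyond their spread in the Control libraries. PLXNA2 and PLXNB3 followed, and PLXNB1, PLXNA4 and PLXNC1 stood under 0.6 CPM per kb in both groups.

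**Figure D3:**
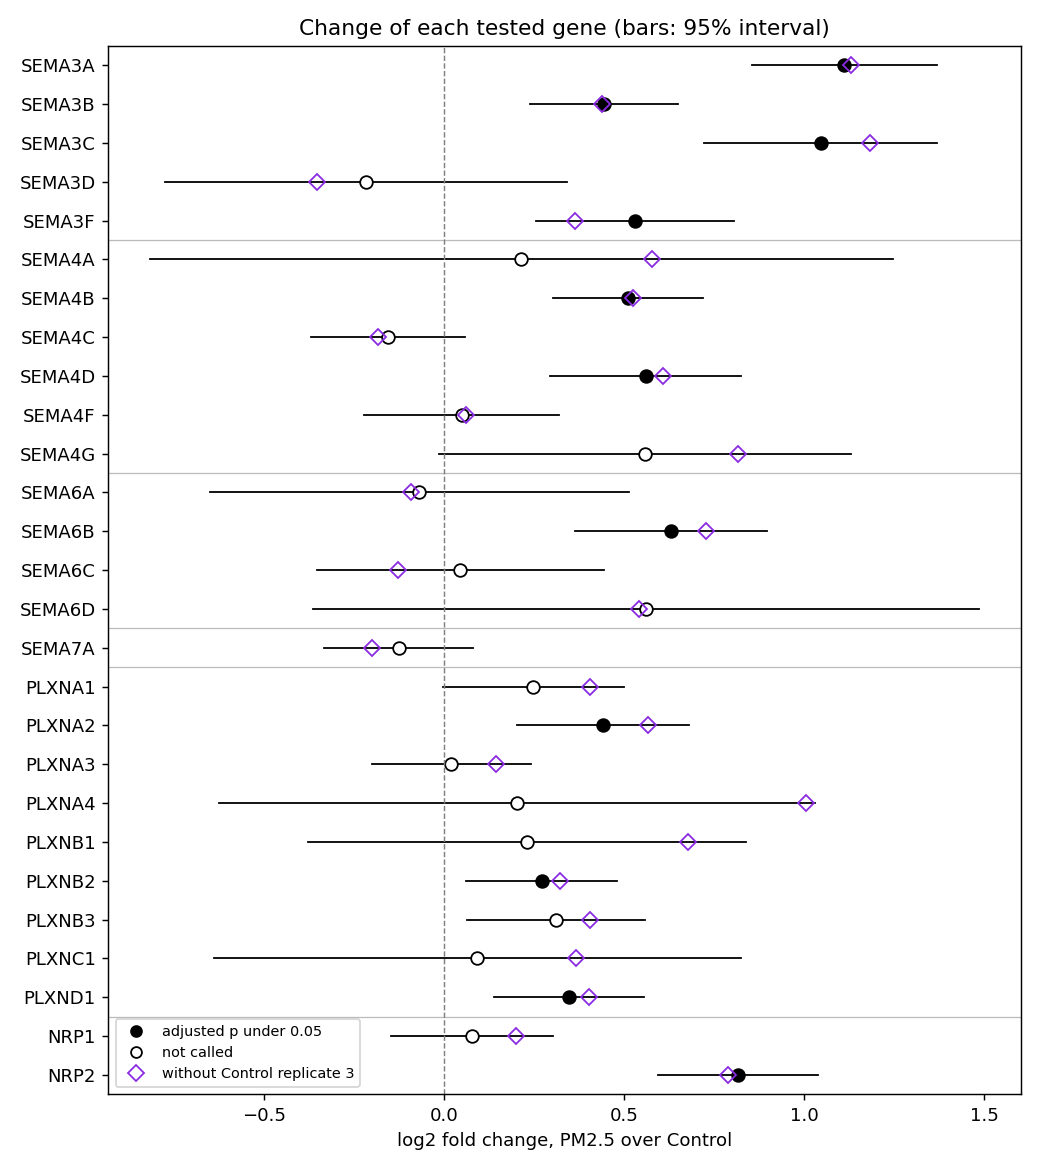
Log2 fold change of the 27 tested members, PM2.5 over Control, with 95% intervals; filled circles passed the test, open circles did not, and open diamonds give the value without Control replicate 3. Lines separate the semaphorin classes, plexins and neuropilins. The diamonds of the 9 plexins all lie to the right of their circles, and that of SEMA3F lies to the left.

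Of the neuropilins NRP2 rose and NRP1 did not pass the test. NRP2, the co-receptor of SEMA3F and of the lymphatic growth factor VEGFC, is encoded on the plus strand of chromosome 2, bases 205681990 to 205798133 (ENSG00000118257). It had 42.8, 43.1 and 49.8 CPM in the PM2.5 libraries, against 26.3, 25.95 and 24.8 CPM in the Control libraries. All 3 PM2.5 libraries lay far above the tight Control group, and NRP2 rose 1.76-fold (log2 change 0.82 ± 0.10, SE, edgeR adjusted p = 2.42e-05). Leaving out any single library left its log2 change between 0.74 and 0.87.

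NRP1, the co-receptor of SEMA3A and VEGFA, is encoded on the minus strand of chromosome 10, bases 33177492 to 33336262 (ENSG00000099250). It had 450.2, 436 and 445 CPM in the PM2.5 libraries, against 386, 385 and 489.9 CPM in the Control libraries. Control replicate 3 was the highest of all 6 libraries and the other Control libraries the lowest. The log2 change was 0.08 with a 95% interval from -0.15 to 0.30 (edgeR adjusted p = 0.608), and without Control replicate 3 it was 0.20 ± 0.07 (adjusted p = 0.0397). Per length NRP1 exceeded NRP2 by 12.7, 12.2 and 10.8 times in PM2.5 replicates 1 to 3 and by 17.7, 17.9 and 23.8 times in Control replicates 1 to 3, ratios that did not overlap. NRP2 thus made up 7.79% ± 0.61 of the neuropilin level per length in the PM2.5 libraries and 4.89% ± 0.75 in the Control libraries (SD, n = 3 each). In a bulk sample, fewer cells with a transcript and less of it per cell cannot be told apart.

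Other receptors that join plexins or neuropilins were set beside the members from a list of 18 genes. Of 12 tested, 9 rose (75%) and 2 fell (16.7%), beside 16.1% and 15.8% of all tested genes (median log2 change of the list 0.61). L1CAM, an adhesion molecule that pairs with NRP1 in the SEMA3A response of axons, rose 2.10-fold to 132 ± 8.76 CPM in the PM2.5 libraries, against 62.7 ± 3.33 CPM in the Control libraries. The proteoglycan CSPG4 rose 2.36-fold, and the integrin chains ITGB1 and ITGA1, which pair as a SEMA7A receptor, rose 1.75-fold and 1.80-fold. MET, the hepatocyte growth factor receptor that associates with class B plexins, rose 1.55-fold to 145 ± 19.4 CPM, against 93.2 ± 11.99 CPM in the Control libraries. ERBB2, a partner of PLXNB1, fell by 0.59 ± 0.11 on the log2 scale. NRCAM fell by 1.43 ± 0.43 to 0.381 CPM, against 1.03 CPM in the Control libraries, a call lost without PM2.5 replicate 2 (edgeR adjusted p = 0.0779), PM2.5 replicate 3 (0.0524) or Control replicate 1 (0.0891). KDR, the main VEGFA receptor of endothelial cells, averaged 0.655 CPM in the PM2.5 libraries and 1.40 CPM in the Control libraries and did not pass the test (adjusted p = 0.0510); it did without PM2.5 replicate 1 (0.0481) or Control replicate 2 (0.0356).

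Of 5 tested growth factors that bind neuropilins, in a list of 7, edgeR called only VEGFB, as lower (20%, beside 15.8% of all tested genes). VEGFA had 1744 ± 69.7 CPM in the PM2.5 libraries and 1994 ± 128 CPM in the Control libraries (edgeR adjusted p = 0.161, and 0.0135 without Control replicate 3, where the log2 change was -0.25). VEGFB, an NRP1 ligand, fell by 0.41 ± 0.12 on the log2 scale, a call lost without PM2.5 replicate 1 (edgeR adjusted p = 0.0768), PM2.5 replicate 2 (0.0627), Control replicate 1 (0.0621) or Control replicate 2 (0.0523). Of 7 tested proteases known to cleave semaphorins or their receptors 2 rose (28.6%, beside 16.1% of all tested genes). They were ADAM10, 1.80-fold, and ADAMTS1, 4.10-fold to a mean of 3.13 CPM, against 0.761 CPM in the Control libraries.

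Genes that act beneath plexins moved both ways. Of 41 tested, 11 rose (26.8%) and 7 fell (17.1%), beside 16.1% and 15.8% of all tested genes. Their median log2 change was 0.11. The rises with the smallest p were RASA1, a Ras GTPase-activating protein (1.94-fold), DPYSL2 (CRMP2), a microtubule-binding mediator of the SEMA3A response (1.54-fold), the GTPase RRAS2 (1.38-fold) and the exchange factor FARP1 (1.39-fold). The falls with the smallest p were those of LIMK1, a kinase of cofilin, by 0.82 ± 0.10 on the log2 scale, the plexin-binding GTPase RND1 by 1.15 ± 0.16, MRAS by 1.37 ± 0.20, and CDK5, a kinase of CRMP2, by 0.88 ± 0.13. RND1 had 5.53 ± 0.70 CPM in the PM2.5 libraries and 12.3 ± 1.10 CPM in the Control libraries (SD, n = 3 each).

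Other guidance systems were listed for comparison. Of 10 tested slits, netrins and their receptors 4 rose (40%) and 1 fell (10%). Of 13 tested ephrins and Eph receptors 5 rose (38.5%) and 2 fell (15.4%). Over all tested genes 16.1% rose and 15.8% fell. The repellent SLIT2 rose 2.55-fold, the bone morphogenetic protein co-receptor RGMB 1.56-fold and ROBO4 1.499-fold, while the laminin-related NTN4 fell by 0.43 ± 0.11 on the log2 scale. UNC5B, a netrin receptor, rose 1.85-fold to a mean of 3.49 CPM, against 1.90 CPM in the Control libraries, a call lost without PM2.5 replicate 3 (edgeR adjusted p = 0.0864), Control replicate 2 (0.0786) or Control replicate 3 (0.0641). EFNB1 and EPHB4 rose 1.45-fold and 1.32-fold, and EPHB2 fell by 0.58 ± 0.11. EPHB3 rose 1.61-fold, a call lost without PM2.5 replicate 3 (edgeR adjusted p = 0.0541). EPHB6, at a mean of 1.03 CPM in the PM2.5 libraries and 0.342 CPM in the Control libraries, rose 2.99-fold, a call lost without PM2.5 replicate 3 (0.111), Control replicate 1 (0.0566) or Control replicate 3 (0.0696). EFNA4 fell by 0.51 ± 0.15, a call lost without PM2.5 replicate 3 (0.0523) or Control replicate 1 (0.0880). With 7 of 16 tested semaphorins, 3 of 9 plexins and 1 of 2 neuropilins higher and 0 lower, the members' counts stand beside those, and the difference between lists was not tested.

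**Figure D4:**
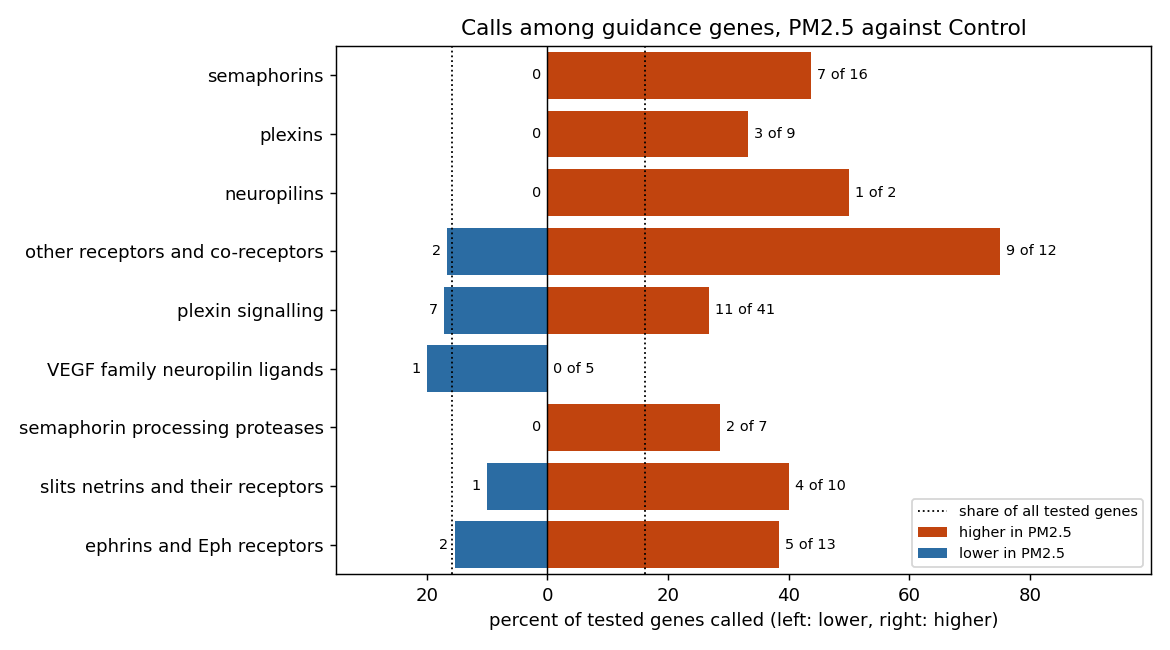
Percent of the tested genes of each guidance list that were called, higher in PM2.5 to the right and lower to the left, with the numbers called; dotted lines mark 16.1% and 15.8% of all tested genes. Semaphorins, plexins, neuropilins and processing proteases have bars to the right only, and plexin signalling genes have both.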

How the data were processed

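RNA of 6 MDA-MB-231 libraries (3 labelled PM2.5, 3 labelled Control) was sequenced after an NEBNext Ultra preparation, per the labels' protocols. The authors deposited raw counts per gene in 1 table, per the file headers, with gene lengths. The submitters' processing notes name the genome GRCh38. For the aligner, the counter and its strand setting, nothing is stated: not given in the sources used here. Coordinates of all 31 members matched GENCODE release 29, whose exons gave the overlaps.

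Columns were assigned by title. Genes were kept by filterByExpr (minimum count 10, total 15), which left 14975. Libraries were scaled by TMM factors (0.962 to 1.047) and compared with edgeR 4.0.16 in R 4.3.3 (quasi-likelihood test, two-sided, group only), with p-values adjusted by Benjamini-Hochberg across the whole tested table and calls at 0.05. SE was taken as the log2 change over the root of F, and 95% intervals use that test's degrees of freedom. Levels per kb divide CPM by the deposited gene length, the union of all exons. The fit was tested on simulated data. Alternatives were DESeq2 1.42.0, its size factors, limma 3.58.1 (voom), other filters, a replicate block and leaving out each library.

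Replicates differed beyond sampling noise (chi-square per degree of freedom 5.58 to 33.1), so each was kept. Members and lists were chosen with earlier results of these data known. Values per library are given for called members and members of at least 5 CPM; from other lists, up to 4 genes in each direction by p and MET, KDR and VEGFA. The value of 1 marker gene is not reported here.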

Additional observations from a re-analysis of the deposited data

How the results depend on the processing

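Of 322 values of single members under the alternatives, 289 kept their direction and side of the threshold, 11 fell short of it, 10 newly passed it and 12 changed sign. The 12 were all in leave-one-outs of members not called there or in the full fit, and the cause was not tested. Their log2 changes over the leave-one-outs ran from -0.12 to 0.58 for SEMA4A, from -0.0051 to 0.084 for SEMA4F, from -0.25 to 0.14 for SEMA6A, from -0.13 to 0.14 for SEMA6C, from -0.044 to 0.14 for PLXNA3, from -0.20 to 1.01 for PLXNA4, from -0.041 to 0.68 for PLXNB1 and from -0.048 to 0.37 for PLXNC1. Without Control replicate 1 the sign changed for SEMA4A, SEMA6A, PLXNA3, PLXNA4, PLXNB1 and PLXNC1, without Control replicate 2 for SEMA4F, PLXNA3 and PLXNC1, and without Control replicate 3 for SEMA6C. It also changed for PLXNC1 without PM2.5 replicate 1 and for SEMA6A without PM2.5 replicate 3. Of the 11 called members 8 kept their call under every alternative run, the exceptions being PLXNA2, PLXNB2 and PLXND1. Leaving out each library in turn gave 8 to 16 members higher and 0 lower, and the other alternatives gave 10 to 12 higher and 0 lower. Over all genes the counts ran from 1797 to 2600 higher and from 1448 to 2680 lower in those leave-one-outs, with the lowest number of lower genes, 1448 against 2365, without PM2.5 replicate 1. With the replicate number as a block, 11 members were higher and 0 lower; the fit ended the call of PLXNB2 (adjusted p = 0.0590) and made that of PLXNB3 (adjusted p = 0.0413), and changed no other member's call. Over all tested genes, libraries of the same number did not deviate together (correlations from -0.12 to -0.002). Such correlations cannot decide whether the samples were paired, and the labels do not say. Single members differed: with the block the SE of SEMA6B went from 0.126 to 0.094, and that of SEMA3C from 0.153 to 0.185. Depth limits the members of few counts most: the 95% interval of SEMA4A, at 0.526 CPM, ran from -0.82 to 1.25 on the log2 scale.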
